A study of Mus musculus with 2 samples.

Results

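A set of 10 genes of the Notch pathway was described across the cells of the mouse aortic arch: the receptors Notch1, Notch2, Notch3 and Notch4, the ligands Dll4, Jag1 and Jag2, and the target genes Hey1, Heyl and Hes1. They were the rows with these symbols in the gene lists of both libraries, 10 of 31053 genes. Each library held pooled cells of 2 aortas from male Apoe-/- C57BL/6 mice of 16 weeks, which lack apolipoprotein E and so keep cholesterol-rich lipoproteins in plasma. The ND library came from mice on a chow diet, and the HFD library came from mice given a high-fat and high-cholesterol diet after weaning. Each diet has a single library, so the diets are compared as values without a test, and the spread between animals is unknown because their cells were pooled. The arch was shredded and digested with an enzyme mix, and no sort of the cells is named. Both libraries thus carry the Apoe deletion, and a value for wild-type mice was not measured.

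Notch receptors are membrane proteins that are cut when a ligand on a neighbouring cell pulls on them. The freed intracellular part enters the nucleus and, with the DNA-binding protein RBPJ, switches on genes such as the Hes and Hey repressors. In arteries the pathway is known for arterial identity of endothelial cells, where Dll4, Notch1 and Notch4 act, and for contact of endothelium with smooth muscle, where Jag1 and Notch3 act.

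Cells were kept with at least 200 genes, at least 200 UMIs (counted molecules) and at most 30% mitochondrial UMIs, which left 5416 ND cells with 27137322 UMIs and 2739 HFD cells with 17191279 UMIs. HFD cells were deeper, with a median of 5336 UMIs against 3732.5, and held more mitochondrial UMIs, with a median of 21.9% against 16.8%. Of these cells 1 barcode occurred in both libraries. Cells were put in classes by UMIs of marker genes, and the endothelial class, with a UMI of Pecam1 and of Cdh5, held 2079 ND and 1152 HFD cells. A list of 5 other endothelial markers summed to 4106 and 3520 CPM (defined below) in it with none at 0, against 49.6 and 62.1 in fibroblasts. Mural cells, the smooth muscle cells and pericytes of the wall, were few, with 41 ND and 16 HFD cells. Apoe transcripts were counted in both libraries, at 46.3 and 49.1 CPM, and since 3′ tags may lie outside the deleted part they do not check the genotype.

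A level is the share of a gene in the summed UMIs of a class, as CPM, followed in brackets by its exact 95% Poisson interval, and levels are given in the order ND, HFD. Levels are compared within a gene and not between genes. A log2 ratio of HFD over ND carries an exact conditional binomial interval. Both kinds of interval describe counting error alone, and differences between mice are outside them. A ratio of 1.5-fold or more was used as a descriptive limit, for genes whose UMIs in the ND and HFD cells of a class reached 100 in sum, and the share of all such genes past it stands beside the count of members.

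All 10 genes are protein-coding in GENCODE M21 on GRCm38. Notch1 lies at chr2:26457903-26516663 on the minus strand, Notch2 at chr3:98013527-98150361 on the plus strand, Notch3 at chr17:32120820-32166852 on the minus strand and Notch4 at chr17:34564268-34588503 on the plus strand. Of the ligands, Dll4 lies at chr2:119325784-119335962 on the plus strand, Jag1 at chr2:137081456-137116644 on the minus strand and Jag2 at chr12:112907819-112929776 on the minus strand. Of the targets, Hey1 lies at chr3:8663359-8667256 on the minus strand, Heyl at chr4:123233556-123249875 on the plus strand and Hes1 at chr16:30064384-30067796 on the plus strand.

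Promoter windows from RefSeq on GRCm38.p6 were found for 7 of the 10 members, and were not found for Hey1, Heyl and Hes1. The bases before the start of 3 of them are shown, because Dll4 and Notch4 had the most alike levels of any pair of members across cell classes, and because Notch3 was the receptor of mural cells. They run 5′ to 3′ on the strand of the gene, and the Notch4 window stops where an annotated exon begins, after 223 bases. Capitals mark GGAAG, the core that ETS factors bind, and GGGCGG, the box that SP1 binds, on either strand. ETS factors are known as regulators of endothelial genes.
Dll4, chr2:119325534-119325783, plus strand: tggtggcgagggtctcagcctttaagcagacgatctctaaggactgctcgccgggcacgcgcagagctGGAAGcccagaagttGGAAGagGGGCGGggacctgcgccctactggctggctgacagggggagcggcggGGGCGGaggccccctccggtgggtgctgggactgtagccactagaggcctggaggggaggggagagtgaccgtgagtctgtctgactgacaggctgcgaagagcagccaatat
Notch4, chr17:34564045-34564267, plus strand: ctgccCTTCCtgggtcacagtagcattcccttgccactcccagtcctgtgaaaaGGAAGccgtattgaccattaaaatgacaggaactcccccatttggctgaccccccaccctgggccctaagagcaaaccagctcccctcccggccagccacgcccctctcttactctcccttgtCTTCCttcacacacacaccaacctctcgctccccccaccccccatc
Notch3, chr17:32166891-32167140, minus strand: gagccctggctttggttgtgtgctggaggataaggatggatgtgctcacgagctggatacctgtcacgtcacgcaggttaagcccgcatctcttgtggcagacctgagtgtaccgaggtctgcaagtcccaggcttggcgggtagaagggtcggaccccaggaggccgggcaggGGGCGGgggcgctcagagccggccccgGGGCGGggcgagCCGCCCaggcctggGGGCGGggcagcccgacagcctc
GGAAG occurred 2 times before Dll4, 3 times before Notch4 and 0 times before Notch3, and 64.1% of 32851 windows of 250 bases hold it. GGGCGG occurred 2, 0 and 4 times in the same order, and 32.7% of all windows hold it. TGGGAA, the core that RBPJ binds, was in none of the 7 members' windows, and 21.6% of all windows hold it. These motifs were chosen with the levels known, and a match of letters is not a bound site.

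Across lineages, 6 of the 10 members were highest in endothelial cells in both libraries (Notch1, Notch4, Dll4, Jag2, Hey1 and Hes1), 3 were highest in mural cells (Notch3, Heyl and Jag1), and Notch2 did not have the same highest lineage in both. Of the 12256 genes with enough UMIs, 10.1% were highest in endothelial cells in both libraries. The lineages compared were endothelial, mural, fibroblast, macrophage, dendritic, T, B, neutrophil and other immune cells. In HFD the endothelial intervals of Notch4 and Hey1 overlapped those of mural cells, which held 7 and 3 UMIs, and that of Jag2 overlapped neutrophils, which held 2 UMIs in 7 cells.

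**Figure D1:**
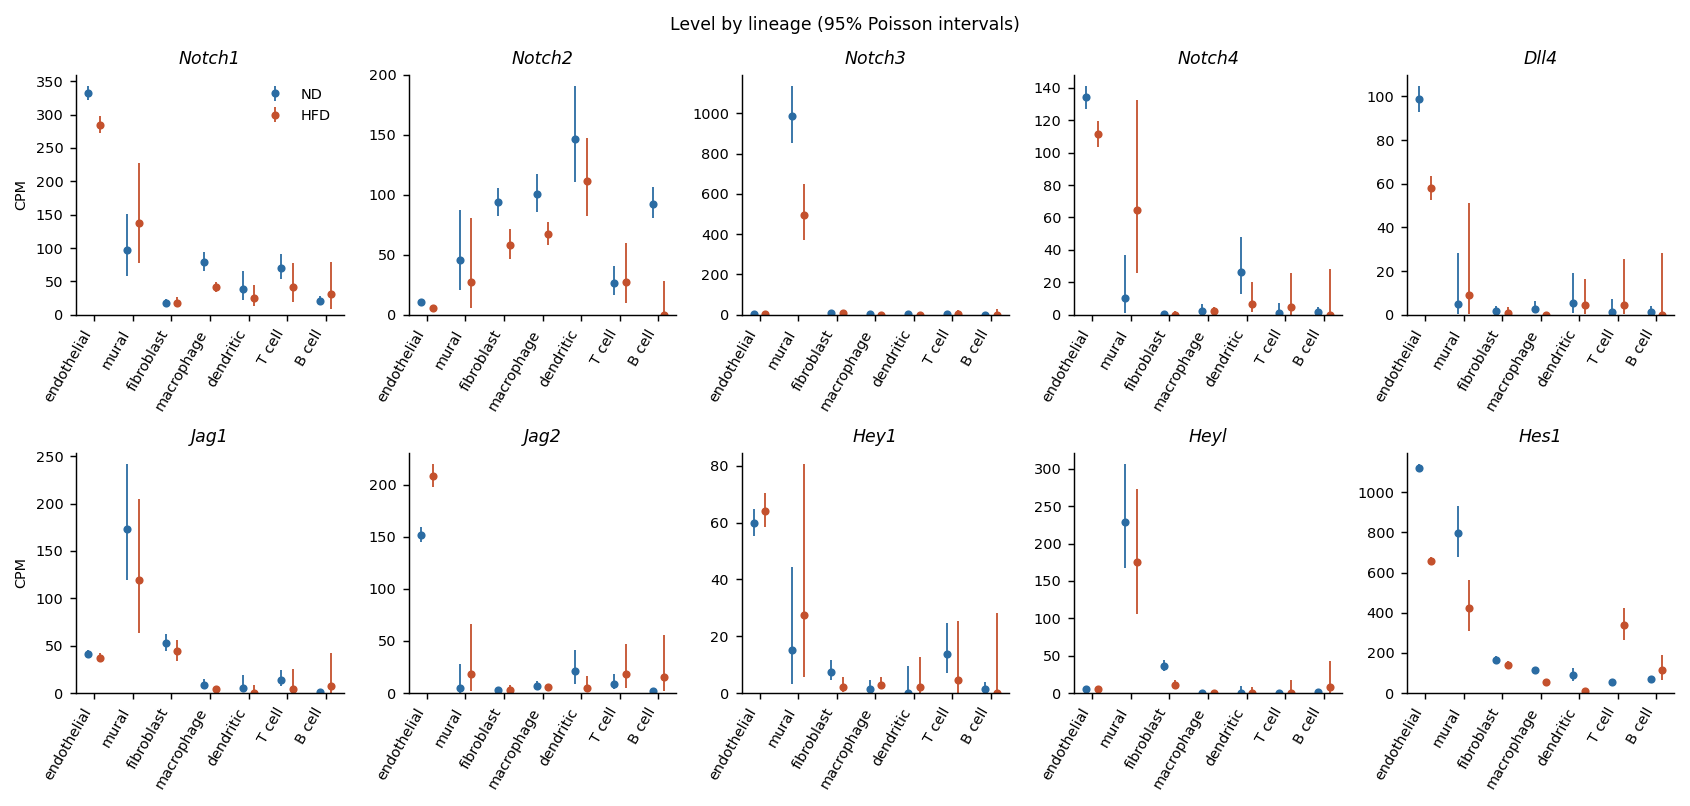
Level of each member (CPM, y axis, from 0) in 7 lineages (x axis) of the ND library (blue) and the HFD library (orange), with bars for the 95% Poisson interval. Notch1, Notch4, Dll4, Jag2, Hey1 and Hes1 are highest in endothelial cells, Notch3, Heyl and Jag1 in mural cells, and Notch2 is low in endothelial cells.

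Notch1, the receptor that Dll4 engages in arterial endothelium, stood at 332 (321 to 343) in ND and 285 (272 to 297) in HFD endothelial cells. Its next lineage was neutrophils in ND, at 142 (92.6 to 208), and mural cells in HFD, at 138 (77.2 to 227), and fibroblasts were at 18.0 and 17.8. A Notch1 UMI was found in 69.6% of ND and 73.7% of HFD endothelial cells, against 6.58% and 7.26% of fibroblasts, whose median depths were 4123 and 4462 UMIs.

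Within endothelium, 4 classes were gated further: luminal cells, with UMIs of Vwf and Vcam1 and none of Gpihbp1 (168 ND and 68 HFD cells), arteriolar cells, with at least 3 UMIs of Sema3g and Stc1 together (220 and 154), and capillary cells, with at least 2 UMIs of Gpihbp1, divided by Cxcl9 into Cxcl9+ (486 and 52) and Cxcl9-low (882 and 695). Notch1 was 431 (398 to 465) in ND and 355 (321 to 392) in HFD arteriolar cells, 331 and 278 in luminal cells, 286 and 282 in Cxcl9+ capillary cells and 310 and 264 in Cxcl9-low capillary cells. Arteriolar cells stood above the other classes in ND, while in HFD their interval overlapped those of Cxcl9+ capillary and luminal cells. The arteriolar level was 1.39-fold that of Cxcl9-low capillary cells in ND and 1.34-fold in HFD. Luminal and Cxcl9-low capillary cells did not differ beyond counting error, with log2 ratios of 0.09 (-0.07 to 0.26) and 0.07 (-0.17 to 0.30). Between the diets, the log2 ratio of Notch1 was -0.22 (-0.30 to -0.14) in all endothelial cells.

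Notch4, a receptor found mainly in endothelium, stood at 134 (127 to 141) in ND and 111 (104 to 119) in HFD endothelial cells. It was counted 1 time in ND fibroblasts and 0 times in HFD fibroblasts, so the HFD endothelial level was at least 56.1-fold higher, with 3 UMIs over the class in place of 0. T cells held 1 UMI in each library. Of the 4 endothelial classes arteriolar cells were highest, at 178 (157 to 200) and 142 (121 to 166), with an interval that overlapped that of Cxcl9+ capillary cells. In HFD the arteriolar interval also overlapped that of Cxcl9-low capillary cells. Luminal cells were lowest of the 4, at 55.7 (43.8 to 69.9) and 84.2 (63.3 to 110). The luminal level was 0.399-fold that of Cxcl9-low capillary cells in ND, and in HFD the gap was not beyond counting error (log2 ratio -0.39, -0.83 to 0.02). The diets stood in opposite order by class, with HFD lower in arteriolar cells (log2 ratio -0.33, -0.62 to -0.04) and in Cxcl9-low capillary cells (-0.34, -0.54 to -0.14), and HFD higher in luminal cells (0.60, 0.06 to 1.12). In Cxcl9+ capillary cells the ratio was -0.41 (-0.89 to 0.05). The arteriolar ratio turned to 0.07 with cells thinned to 1000 UMIs, and the Cxcl9-low capillary ratio turned to 0.82 in the 51 ND and 4 HFD cells with at most 10% mitochondrial UMIs. In luminal cells with no UMI of the capillary markers Cd36, Aqp1 and Car4, Notch4 was at 59.3 in 97 ND cells and 67.9 in 22 HFD cells, with a ratio of 0.20 (-0.82 to 1.12), whose interval includes 0.

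Notch3, the receptor of smooth muscle cells and pericytes, was at 986 (852 to 1135) in ND and 496 (373 to 648) in HFD mural cells, and at 3.44 and 5.52 in endothelial cells. The mural level was 287-fold that of endothelial cells in ND and 89.9-fold in HFD. A Notch3 UMI was in 87.8% and 81.2% of mural cells, against 1.39% and 2.17% of endothelial cells. No B cell of either library held one, in 532 ND and 18 HFD cells. Levels were 1379 (971 to 1900) and 938 (618 to 1365) in pericytes, with 9 and 8 cells, and 924 (785 to 1081) and 338 (222 to 491) in smooth muscle cells, with 32 and 8 cells. The smooth muscle intervals of the diets do not overlap, and those of pericytes do. In arteriolar endothelial cells Notch3 was at 8.54 and 16.1.

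Barcodes that passed both the endothelial and the mural gates, 49 in ND and 74 in HFD, held Notch3 at 594 (520 to 675) and 321 (276 to 372), with a log2 ratio of HFD over ND of -0.89 (-1.18 to -0.60). Such barcodes may hold more than 1 cell and were left out of both lineages. In mural cells the ratio was -0.99 (-1.45 to -0.55). Smooth muscle markers also stood lower in HFD, at 11133 and 6049 CPM in mural cells and 1914 and 835 in the mixed barcodes for a list of 3 with none at 0, while a list of 4 pericyte markers stood at 1179 and 1232 and at 812 and 869. Their part in the Notch3 difference was not tested.

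Notch2, a receptor of blood and connective tissue cells, was low in endothelium, at 10.7 (8.82 to 12.8) and 5.94 (4.28 to 8.04), a ratio of -0.84 (-1.39 to -0.32) that turned to 0.15 with cells thinned to 1000 UMIs, from 13 and 8 UMIs. It stood at 147 (111 to 190) and 111 (82.3 to 147) in dendritic cells, 100.4 (85.4 to 117) and 67.3 (58.4 to 77.3) in macrophages, and 93.5 (82.3 to 106) and 58.2 (46.6 to 71.6) in fibroblasts. In these 3 classes HFD was lower, with log2 ratios of -0.40 (-0.98 to 0.18), -0.58 (-0.88 to -0.27) and -0.69 (-1.05 to -0.33), the first not beyond counting error, and the last turned to 0.077 after thinning. ND B cells held it at 92.4 (80.1 to 106), and the 18 HFD B cells held 0 UMIs, with an upper limit of 28.2. ND neutrophils, at 180 (124 to 253), had an interval that overlapped that of dendritic cells. Among the 4 endothelial classes Notch2 was highest in luminal cells, at 27.5 and 18.7. These levels were 3.88-fold and 5.04-fold those of Cxcl9-low capillary cells. The 24 ND lymphatic endothelial cells held Notch2 at 77.9 (43.6 to 128), from 15 UMIs, and the 3 HFD ones held 0. Fibroblast markers, a list of 3, summed to 1478 and 867 CPM in luminal cells with none at 0, against 104 and 59.6 in Cxcl9-low capillary cells, and their part in the luminal levels of Notch2 and Jag1 was not tested.

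Dll4, the ligand of arterial and sprouting endothelium, was at 98.7 (92.9 to 105) in ND and 57.9 (52.4 to 63.8) in HFD endothelial cells, a log2 ratio of -0.77 (-0.94 to -0.60). A UMI was in 33.7% and 25.2% of endothelial cells, against 0.658% and 0.315% of fibroblasts. With each cell thinned to 1000 UMIs the endothelial shares were 9.64% and 5.82%, and the thinned share was lower in HFD as well. In arteriolar cells the level was 169 (149 to 191) in ND and 83.9 (67.8 to 103) in HFD, in Cxcl9-low capillary cells 104 (93.0 to 116) and 51.1 (44.2 to 58.9), and in Cxcl9+ capillary cells 91.0 (80.7 to 102) and 55.9 (35.0 to 84.6). The log2 ratios were -1.01 (-1.36 to -0.66), -1.03 (-1.29 to -0.76) and -0.70 (-1.40 to -0.08). Arteriolar cells stayed above Cxcl9-low capillary cells in both libraries, by 1.62-fold and 1.64-fold.

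Luminal cells showed the opposite for Dll4, with 21.6 (14.4 to 30.9) in ND and 57.7 (40.6 to 79.5) in HFD, a log2 ratio of 1.42 (0.68 to 2.17) on 29 and 37 UMIs. A UMI was found in 12.5% of ND and 32.4% of HFD luminal cells. After thinning the shares were 1.19% (0.14 to 4.23) and 7.35% (2.43 to 16.3), from 2 and 5 cells, and these intervals overlap. Luminal cells thus held the lowest Dll4 level of the 4 classes in ND, at 0.207-fold that of Cxcl9-low capillary cells, while in HFD these classes did not differ beyond counting error (log2 ratio 0.17, -0.37 to 0.69). Capillary markers moved with it, since a list of 3 summed to 366 CPM in ND and 951 in HFD luminal cells with none at 0, against 8475 and 8936 in Cxcl9-low capillary cells. A list of 2 luminal markers summed to 6764 and 4240 CPM in luminal cells with none at 0, and its part in the luminal Dll4 and Notch4 values was not tested. Luminal cells with no capillary marker UMI held Dll4 at 19.3 in ND (97 cells) and 78.4 in HFD (22 cells). The ratio there was 2.02 (0.87 to 3.18), and 13 ND and 10 HFD cells held a Dll4 UMI, with at most 2 and 5 in a cell. Luminal cells with 2 or more capillary marker UMIs were 44 in ND and 39 in HFD. In them Dll4 stood at 26.5 and 49.7, a ratio of 0.90 (-0.27 to 2.17), whose interval includes 0. The part of capillary RNA in the luminal Dll4 value was not tested.

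**Figure D2:**
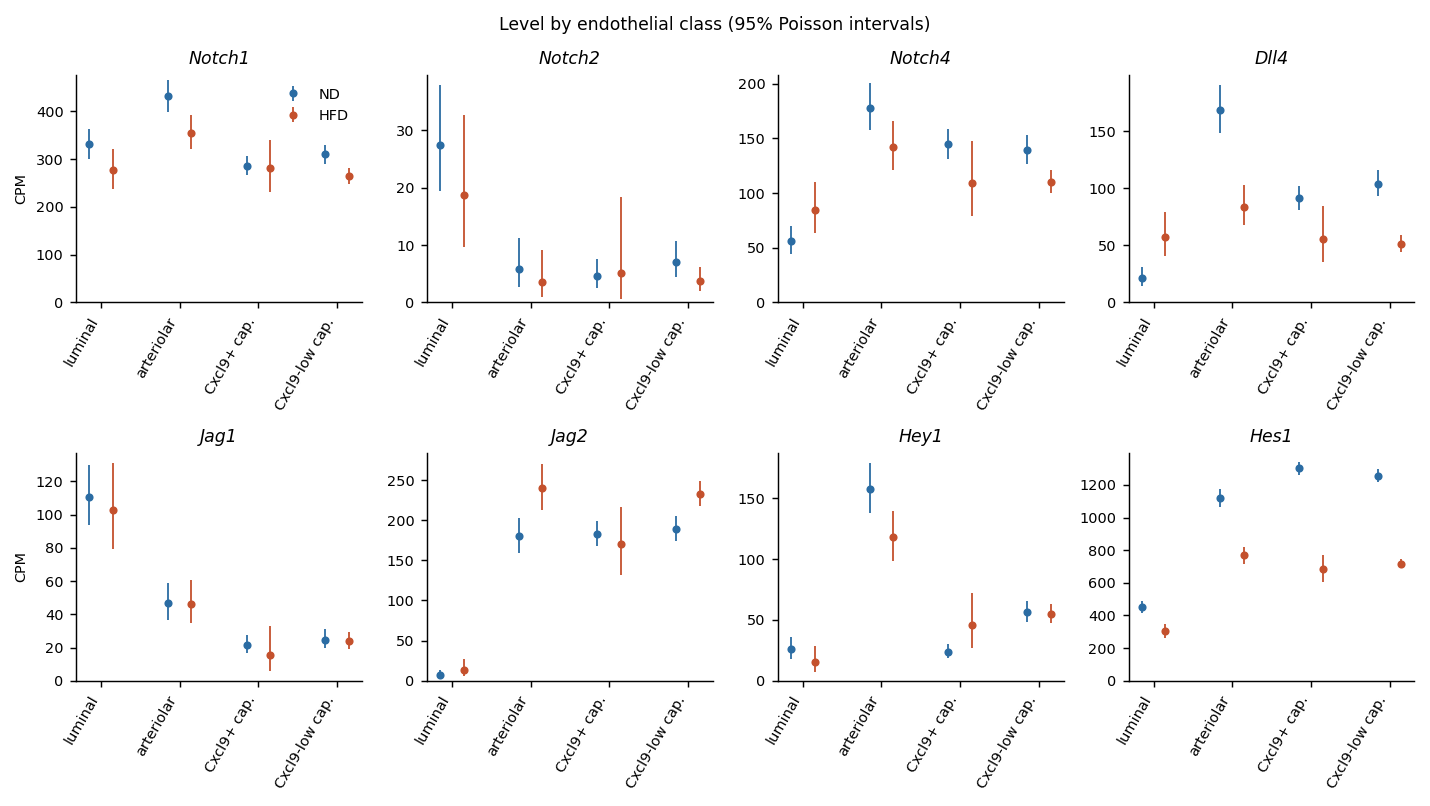
Level of 8 members (CPM, y axis, from 0) in 4 endothelial classes (x axis; cap., capillary) of the ND (blue) and HFD (orange) libraries, with bars for the 95% Poisson interval. Dll4 is lower in HFD in arteriolar and capillary cells and higher in luminal cells, Jag2 is near 0 in luminal cells, and Hes1 is lower in HFD in all 4.

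Jag1, the ligand by which endothelium contacts mural cells, was at 41.0 (37.3 to 45.1) and 37.4 (33.0 to 42.2) in endothelial cells and at 173 (120 to 242) and 120 (63.6 to 204) in mural cells, with 200 and 100.01 in smooth muscle cells and 0 and 174 in pericytes, the last from 5 UMIs. Fibroblasts stood at 53.0 and 44.3. Among the 4 endothelial classes luminal cells were highest, at 111 (93.7 to 130) and 103 (79.6 to 131), arteriolar cells next at 46.6 and 46.4, and Cxcl9-low capillary cells at 24.8 and 24.1. Luminal cells stood 4.46-fold and 4.27-fold above Cxcl9-low capillary cells. Smooth muscle markers, a list of 3 with 0 and 1 at 0, summed to 279 and 145 CPM in luminal cells, and their part was not tested. Between the diets, the interval of the log2 ratio included 0 in each of the 4 classes, and over all endothelial cells the ratio was -0.14 (-0.36 to 0.09).

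Jag2, a ligand of capillary and arterial endothelium, was at 7.43 (3.56 to 13.7) and 14.0 (6.42 to 26.6) in luminal cells, from 10 and 9 UMIs, and at 189 (174 to 205) and 233 (218 to 249) in Cxcl9-low capillary cells. Arteriolar cells, at 180 and 240, and Cxcl9+ capillary cells, at 183 and 170, were near that level. Luminal cells were thus at 0.0394-fold and 0.0603-fold the Cxcl9-low capillary level. Among the 4 endothelial classes this was the widest gap of any member with enough UMIs. Jag2 was the only member whose ratio over all endothelial cells had an interval above 0, at 209 (198 to 220) against 152 (145 to 160) in all endothelial cells, with a log2 ratio of 0.46 (0.35 to 0.56), which turned to -0.08 in the 364 ND and 44 HFD cells with at most 10% mitochondrial UMIs. In arteriolar cells the ratio was 0.42 (0.17 to 0.66) and in Cxcl9-low capillary cells 0.30 (0.15 to 0.46), while in Cxcl9+ capillary cells it was -0.10 (-0.49 to 0.26). Outside endothelium it stayed at 3.01 and 3.30 in fibroblasts and 6.27 and 5.64 in macrophages.

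Compared with Cxcl9-low capillary cells, luminal cells were at least 1.5-fold higher in both libraries for 2 of the 9 members with enough UMIs (Notch2 and Jag1) and lower for 4 (Jag2, Hey1, Hes1 and Heyl), against 21.3% and 13.7% of 9307 genes. For Heyl this rests on 2 ND and 1 HFD luminal UMIs. In ND alone, with 1 CPM added to each level, the median log2 ratio of all 10 members was -1.24, beside 0.11 over these genes. Arteriolar cells were higher for 3 (Dll4, Jag1 and Hey1) and lower for 0, against 2.75% and 0.903% of genes. The ND median of all 10 members, taken in the same way, was 0.41 beside 0.09. In HFD the arteriolar ratio of Jag1 turned below 0 with cells thinned to 1000 UMIs, from 3 UMIs against 21. Sema3g, 1 of the 2 genes of the arteriolar gate, was among the genes most like Hey1 in pattern.

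Hey1, a repressor that Notch induces as part of the arterial programme, was at 59.9 (55.4 to 64.7) and 64.1 (58.4 to 70.3) in endothelial cells. Arteriolar cells led at 158 (138 to 179) and 118 (98.6 to 140), followed by Cxcl9-low capillary cells at 56.4 and 55.1, while luminal cells stood at 26.0 and 15.6. Cxcl9+ capillary cells were at 24.1 (18.9 to 30.2) in ND and 45.7 (27.1 to 72.3) in HFD, and their ratio of 0.93 (0.10 to 1.68) went against that of arteriolar cells, -0.42 (-0.74 to -0.11). Cells with a Dll4 UMI held more Hey1 in the Cxcl9-low capillary class, at 82.1 against 44.4 in ND and 80.2 against 48.1 in HFD, with median depths of 3283 and 2755 UMIs in ND and 5217 and 4907 in HFD. In arteriolar cells the levels were 152 against 172 and 134 against 106, and both intervals of the ratio included 0.

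Hes1, an early target of Notch that other signals also induce, was at 1119 (1099 to 1139) in ND and 659 (641 to 679) in HFD endothelial cells, a log2 ratio of -0.76 (-0.81 to -0.71). The Cxcl9+ and Cxcl9-low capillary classes stood at 1301 and 1254 in ND and at 683 and 716 in HFD, with ratios of -0.93 (-1.11 to -0.75) and -0.81 (-0.88 to -0.74). Arteriolar cells stood at 1118 and 768 and luminal cells, the lowest, at 451 and 304. A Hes1 UMI was in 86.8% of ND and 86.0% of HFD endothelial cells, and after thinning to 1000 UMIs in 59.1% and 45.1%.

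Hes1 was also lower in HFD in mural cells (798 and 423, ratio -0.92, -1.42 to -0.43), fibroblasts (166 and 138, ratio -0.27, -0.51 to -0.03), macrophages (114 and 53.1, ratio -1.10, -1.41 to -0.78) and dendritic cells (89.1 and 11.4, from 34 and 5 UMIs). A list of 10 immediate early genes, which stress and cell dissociation induce, also stood lower in HFD, and was chosen after values had been seen. Its summed level was 12485 in ND and 9948 in HFD endothelial cells with 9 of 10 lower, 10736 and 6691 in macrophages with 10 of 10 lower, and 8325 and 6529 in fibroblasts with 9 of 10 lower. In the mixed endothelial and mural barcodes, where Hes1 was 993 and 631, the list stood at 12550 and 12888 with 4 of 10 lower. Mitochondrial shares were higher in HFD endothelial cells, at a median of 22.5% against 16.8%. Their part in the Hes1 difference was not tested. In luminal cells with no capillary marker UMI, Hes1 was 271 and 261, a ratio of -0.06 (-0.53 to 0.40), against -0.57 (-0.81 to -0.33) in all luminal cells.

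**Figure D3:**
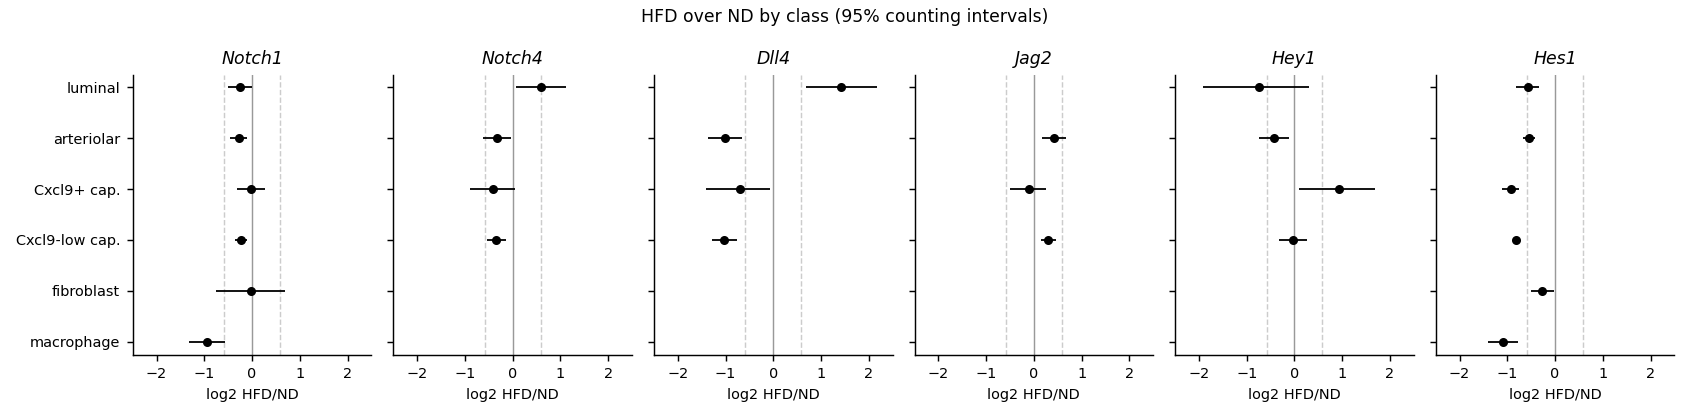
Log2 ratio of HFD over ND (x axis) for 6 members by class (y axis; cap., capillary), with 95% counting intervals and dashed lines at 1.5-fold; classes with under 30 UMIs are left out. The Dll4 point lies above 0 in luminal cells and below 0 in the other endothelial classes, and Hes1 lies below 0 in each class drawn.

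T cells held more Hes1 in HFD, at 52.9 (38.1 to 71.5) in 263 ND cells and 338 (266 to 425) in 35 HFD cells. The UMIs lay in few cells, 13 in ND and 12 in HFD, with at most 14 and 33 UMIs in a cell. Without the cell with the most UMIs the levels were 35.6 and 195. Cells with at least 2 UMIs of Dntt and Rag1 together, genes of developing lymphocytes, held Hes1 at 469 in 14 ND cells and 618 in 15 HFD cells, and 249 and 19 T cells with 0 UMIs of both held 22.9 and 83.0, which leaves out 1 HFD cell with 1 UMI. In B cells the ratio was 0.76 (-0.12 to 1.53).

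Heyl, the Hey family member of mural cells, was at 229 (167 to 306) and 175 (105 to 273) in mural cells and at 5.85 and 5.24 in endothelial cells. Pericytes stood at 447 (231 to 781) and 382 (191 to 684), smooth muscle cells at 194 (134 to 273) and 100.01 (43.2 to 197), and the mixed endothelial and mural barcodes at 132 and 142. The intervals of the diets overlapped in each of these classes, and the pericyte values rest on 12 and 11 UMIs. In fibroblasts Heyl was 36.1 (29.2 to 44.0) in ND and 10.6 (6.04 to 17.2) in HFD, a log2 ratio of -1.77, and a UMI was in 67 of 608 and 12 of 317 cells. Pericyte markers in fibroblasts summed to 217 and 111 for the list of 4, with 1 at 0 in each library, and their part was not tested.

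**Figure D4:**
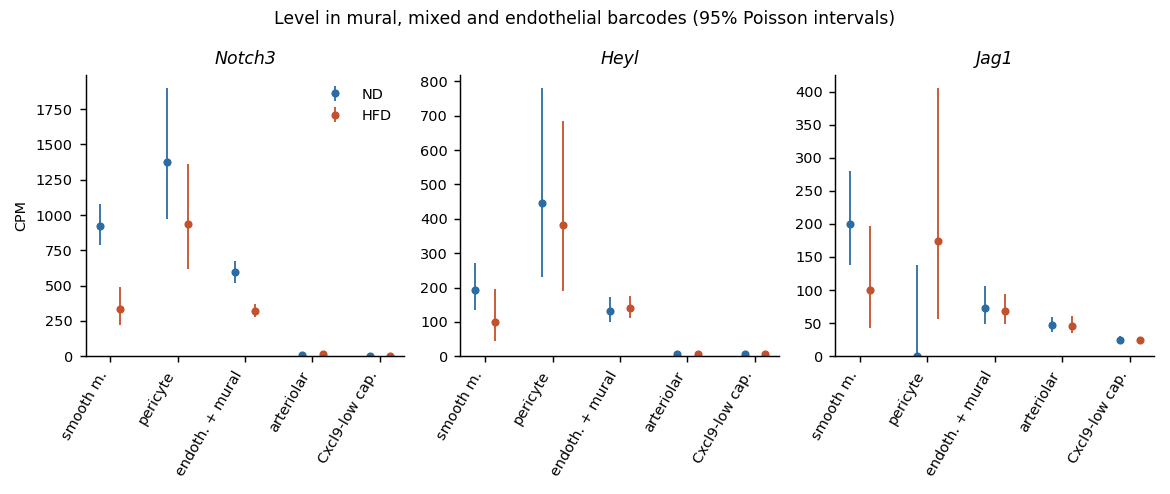
Level (CPM, y axis, from 0) of Notch3, Heyl and Jag1 in smooth muscle cells, pericytes, barcodes passing the endothelial and mural gates, and 2 endothelial classes (x axis; cap., capillary) in ND (blue) and HFD (orange), with 95% Poisson intervals. Notch3 and Heyl are near 0 in the endothelial classes, and Notch3 is lower in HFD in smooth muscle and mixed barcodes.

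For HFD against ND, 0 of the 9 members with enough UMIs in endothelial cells were at least 1.5-fold higher and 3 were lower (Notch2, Dll4 and Hes1), where 3.88% and 15% of 9307 genes were. The members' median log2 ratio was -0.22, beside -0.16 over all these genes. In macrophages, 0 of 3 were higher and 2 were lower (Notch1, 79.0 and 41.1, and Hes1), beside 8.02% and 14.1% of 4888 genes. In fibroblasts, 0 of 4 were higher and 2 lower (Notch2 and Heyl), beside 4.13% and 12.7% of 5376 genes. The median log2 ratio over genes with at least 10 UMIs in each library was -0.16 in endothelial cells, -0.15 in macrophages and -0.14 in fibroblasts. Scaling by the median of ratios subtracts this median from every ratio. After that scaling, Dll4 and Hes1 in endothelial cells stood at -0.61 and -0.60, Notch1 at -0.06, and Jag2 at 0.62, past 1.5-fold.

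Macrophages were divided by marker UMIs into resident cells (186 ND and 139 HFD), foam-type cells (24 and 129) and others. These groups do not cover all 317 ND and 425 HFD macrophages, and the cells outside them are not described. Resident cells held Hes1 at 110 and 101, Notch2 at 122 and 97.4, and Notch1 at 84.8 and 48.7, and the intervals of the diets overlapped for each gene. Foam-type cells held Hes1 at 105 (62.5 to 167) and 29.6 (20.9 to 40.8), Notch2 at 64.4 and 36.8, and Notch1 at 52.7 and 19.2. In these cells the intervals of the diets overlapped for Notch2 and for Notch1, which had 9 ND and 24 HFD UMIs. HFD foam-type cells were lower than HFD resident cells for all 3 genes. The other macrophages (88 and 102) held Hes1 at 151 (115 to 195) and 27.2 (15.5 to 44.2), Notch1 at 66.7 and 71.4, and Notch2 at 82.1 and 93.5.

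Another 53 genes of the pathway were listed by role, and 50 had enough UMIs over all cells. Of them 10 were highest in endothelial cells in both libraries, among them the ligand Dll1 (43.8 and 47.1), the sheddase Adam10 (155 and 144), the fringe enzyme Mfng (46.1 and 34.3) and the targets Efnb2 (241 and 228) and Gata2 (125 and 109), and 8 in mural cells, among them the targets Hey2 (132 and 55.2) and Nrarp (163 and 120) and the ubiquitin ligase Dtx3 (280 and 313). Rbpj, the DNA-binding partner of all 4 receptors, was highest in macrophages, at 312 and 184, against 45.5 and 34.8 in endothelial cells.

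Of 47 such genes with enough UMIs in endothelial cells, 0 were at least 1.5-fold higher in HFD and 9 were lower, with a median log2 ratio of -0.20. Over all 9307 genes the shares were 3.88% and 15% and the median was -0.16. With scaling by the median of ratios 5 of the 47 were higher and 3 lower, and the shares of all genes were not counted after that scaling. Of the 9 lower without that scaling, the 5 largest by size were Mib2, a ubiquitin ligase of ligands (19.7 and 10.8, ratio -0.87), Psen2 and Aph1b, parts of gamma-secretase (34.4 and 19.4, -0.83, and 31.1 and 18.3, -0.77), Neurl1b, a ubiquitin ligase (14.9 and 8.92, -0.75), and Tle3, a corepressor (46.3 and 28.2, -0.72). Nrarp, a feedback target in endothelium, stood at 125 and 115, a ratio of -0.12 (-0.25 to 0.01), and Efnb2 at -0.08 (-0.17 to 0.01), and both intervals include 0. In macrophages 1 of 26 was higher and 5 lower, Rbpj among the latter, and in fibroblasts 0 of 29 were higher and 2 lower.

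**Figure D5:**
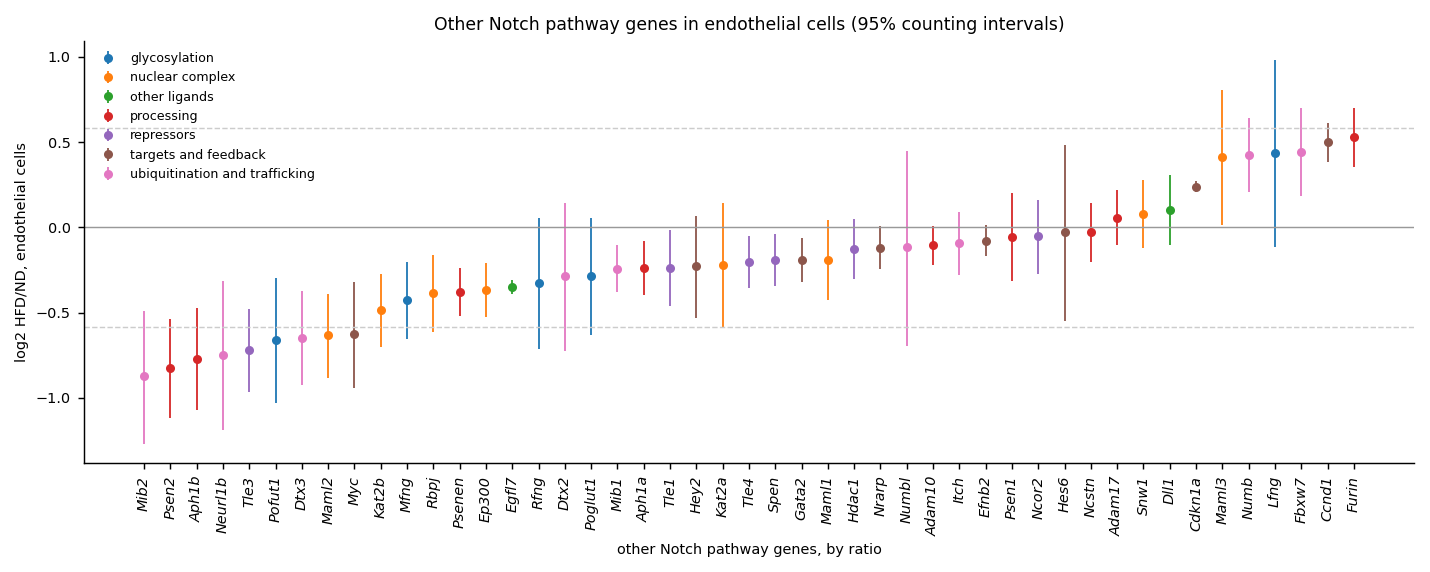
Log2 ratio of HFD over ND in endothelial cells (y axis) for the 47 other pathway genes with enough UMIs, ordered by ratio (x axis) and coloured by role, with 95% counting intervals and dashed lines at 1.5-fold. No gene lies above the upper line and 9 lie below the lower line, where 3.88% and 15% of all genes do. With scaling by the median of ratios the counts of pathway genes are 5 and 3, and the shares of all genes were not counted after that scaling.

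By Pearson correlation of log2 level with 10 CPM added, over 21 points (classes of at least 50 cells in a library), the genes most like each member in pattern were named from 11591 candidates. The points share 2 libraries, and the correlations are a description. Notch1 was most like Klf2 (0.96), Rasip1 and Arap3, Notch4 most like Ccm2l (0.98), Nova2 and Gpr4, and Dll4 most like Nova2 (0.98), Bend7 and Exoc3l. Jag2 was most like Btnl9 (0.99), Aqp7 and Kdr, Hey1 most like Unc5b (0.94), Sema3g and Magix, and Hes1 most like Gng11 (0.97), 1700020I14Rik and Dock9. Jag1 was most like Ltbp4 (0.96), Mageh1 and Trim2, and Heyl most like Ndrg2 (0.90), Wnt9a and Lurap1l. Mural cells, with 41 and 16 cells, are not among these points, so for Notch3, Heyl and Jag1 the lineage of their highest level is left out. Notch3 stood at 16.1 CPM or less at every one of these points, and the genes named for it, Pth1r (0.88), Usp46 and Rnf152, are those most like its low levels there. Notch2 was most like the immune genes Lsp1 (0.93), Fgl2 and Il6ra. Among the members, Notch4 and Dll4 were closest to each other (0.97), and Notch2 ran against Notch4 (-0.87) and Dll4 (-0.88).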

How the data were processed

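The authors ran Cell Ranger on 10x Genomics libraries and deposited raw UMI counts per gene and barcode, without normalization. The submitters' processing notes name mm10. A table of both libraries joined was not used. The limits on genes, UMIs and mitochondrial share follow the study's methods, and 5416 of 10234 ND and 2739 of 14225 HFD barcodes were left, the cell numbers that the methods state. Cells were classed by UMIs of fixed marker genes. Barcodes passing gates of 2 or more lineages, or of 2 or more immune types, were left out as possible doublets (395 ND and 331 HFD). A further 794 ND and 247 HFD cells passed no gate. Summed UMIs of a class, by library, gave CPM.

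With 1 library per diet no test was made. Shares have Clopper-Pearson intervals, and a count of 0 was set to 3 UMIs for bounds. Alternatives changed the mitochondrial limit, gates, doublets, depth, scaling and weight of cells. Named are the 10 members, pathway genes past 1.5-fold in endothelial cells (at most 5 per direction) and the 3 genes most like each member. Other genes were named for their role or after values were seen. The members and lists were chosen with earlier results of these data known. Intervals were tried on simulated Poisson counts alone. That is the model behind them, so the trial cannot show how they hold where UMIs cluster in few cells. Python 3.11.15, numpy 2.4.6, scipy 1.17.1, pandas 2.3.3 and scanpy 1.11.5 were used, with figures from matplotlib 3.10.9.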

Additional observations from a re-analysis of the deposited data

Results flagged for a closer look

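Dll4 stood on opposite sides in different endothelial classes, with a log2 ratio of HFD over ND of 1.42 in luminal cells and of -1.01, -0.70 and -1.03 in arteriolar, Cxcl9+ capillary and Cxcl9-low capillary cells. The difference between the classes was not tested, since each diet has 1 library.

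Hey1 was higher in HFD in Cxcl9+ capillary cells (0.93) and lower in fibroblasts (-1.92, from 20 and 3 UMIs). Hes1 was higher in T cells (2.68) and lower in Cxcl9+ capillary cells (-0.93), Cxcl9-low capillary cells (-0.81), macrophages (-1.10), dendritic cells (-2.97) and mural cells (-0.92). Neither contrast was tested.

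Barcodes removed by the filter, 4818 in ND and 11486 in HFD, held Jag2 at 51.7 and 93.6 CPM, a log2 ratio of 0.86 (0.68 to 1.04). Ratios there were also above 0 for Notch1 (0.25, 0.12 to 0.39), Notch3 (0.55, 0.17 to 0.96) and Notch4 (0.43, 0.20 to 0.66). Over all kept cells these stood at -0.17, -0.13 and -0.24, and the Notch3 interval included 0. In removed barcodes Notch2 (-0.63), Dll4 (-0.81) and Hes1 (-0.28) were lower in HFD, and the intervals of Jag1, Hey1 and Heyl included 0.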

How the results depend on the processing

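No paired analysis was possible because each diet has 1 library, and for the same reason no replicate could be left out. Scaling by the median of ratios gave 1 member at least 1.5-fold higher in HFD endothelial cells (Jag2) in place of 0, and 5 other pathway genes higher and 3 lower in place of 0 and 9. The shares of all genes past 1.5-fold were not counted after that scaling. With at most 10% mitochondrial UMIs, which left 364 ND and 44 HFD endothelial cells, 3 members in place of 6 were highest in endothelial cells in both libraries. With each cell thinned to 1000 UMIs, the log2 ratio of Notch2 turned to 0.15 in endothelial cells, from 13 and 8 UMIs, and to 0.077 in fibroblasts, from 43 and 24, and that of Jag1 in arteriolar over Cxcl9-low capillary cells turned to -0.63 in HFD, from 3 against 21. Of 726 values recomputed under 9 settings, 608 stayed within their counting interval and 118 left it, of which 87 kept their sign and 31 changed it. Of these, only the 3 above were past 1.5-fold with an interval that excluded 0. Among smaller ratios whose interval excluded 0, cells with at most 10% mitochondrial UMIs gave Notch1 0.50, Notch4 0.82 and Jag2 -0.32 in Cxcl9-low capillary cells (51 ND and 4 HFD cells), Hey1 0.19 in arteriolar cells (70 and 12) and Hes1 0.20 in fibroblasts (107 and 7), and arteriolar over Cxcl9-low capillary cells in HFD stood at -0.12 for Notch1 and -0.81 for Notch4, and in ND at 0.21 for Hes1. Thinning gave Notch4 0.07 in arteriolar cells. Over these settings the Dll4 ratio ranged from 1.19 to 2.63 in luminal cells, the latter from 2 and 5 UMIs after thinning. In arteriolar cells it ranged from -1.16 to -0.88, and the endothelial Hes1 ratio ranged from -0.91 to -0.60. That of Jag2 ranged from -0.08 to 0.62, and that of Hes1 in luminal cells from -0.64 to 0.07. Settings that left 0 UMIs in a library gave no value. Leaving out luminal cells with capillary marker UMIs and the T cell with the most Hes1 were chosen after seeing the data. The causes were not tested.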

Other observations

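Dtx1, a ubiquitin ligase of the pathway list singled out after its values were seen, had most of its endothelial UMIs in 1 class. In ND, 64 of its 77 endothelial UMIs lay in 18 of the 24 lymphatic cells, at 332 CPM, while luminal and arteriolar cells held 0. Outside endothelium, ND B cells held 70 UMIs, at 31.7 CPM, and ND T cells held 21. The HFD library had 3 lymphatic cells, which held 1 UMI. The same ND lymphatic cells held Dll4 at 88.3 (51.4 to 141), Notch1 at 296 (224 to 383) and Notch4 at 5.19, from 17, 57 and 1 UMIs.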
